A study of Mus musculus with 2 samples.

Results

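Within the vehicle library, 956 of 5146 kept cells (18.6%, 95% interval 17.5 to 19.7) carried almost no RNA of the granule genes Cpa3 and Mpo. Cells were chosen by 2 conditions on their own counts: Cpa3 and Mpo each below 50 CPM, where CPM is a gene's counts scaled to one common total, and 6 later granule genes (Camp, Ngp, Ltf, Lcn2, S100a8 and S100a9) together below 2% of all counts. Counts are of UMIs (unique molecular identifiers), short random tags that let each captured RNA molecule be counted once. These cells are called double-low cells here. The other 4190 kept vehicle cells comprised 2711 with Cpa3 and little Mpo, 843 with both, 559 with Mpo and little Cpa3, and 77 whose granule genes reached the 2% limit. The 8 genes of the rule chose the cells, so their levels, and every other difference between the double-low and the remaining vehicle cells, are given as a description of the selection.

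The cells were promyelocytes of mice with leukemia driven by PLZF/RARA, a fusion of the zinc finger protein PLZF (Zbtb16) with retinoic acid receptor alpha (Rara). PLZF/RARA-transformed progenitors were sorted from leukemic bone marrow as late promyelocytes, positive for Cd45.2, C-Kit, Gr1 and FcγR and negative for Cd34. The vehicle group had received corn oil with 10% DMSO by intraperitoneal injection and the retinoic acid group 0.8 to 1 mg of retinoic acid by the same route, both for 7 days in cohorts of 3 to 5 mice. Each group was 1 droplet library (10x Genomics 3′ chemistry, target 6000 cells), and the labels do not say how many mice gave cells to it, nor how the fusion was introduced. No difference below therefore has a replicate check or a test. All brackets hold 95% intervals, which cover counting error alone and leave out any spread between animals or preparations. The vehicle matrix listed 5786 barcodes and the retinoic acid matrix 7416, of which 5146 and 6248 were kept, with a median of 17172 and 15289 UMIs per cell. The matrices shared 11 barcodes, 1 of them a double-low cell.

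Promyelocytes are the stage of granulocyte development at which primary (azurophil) granules are filled with myeloperoxidase (Mpo), neutrophil elastase (Elane), proteinase 3 (Prtn3) and cathepsin G (Ctsg). Secondary granule proteins such as Camp, Ngp, Ltf and Lcn2 follow at later stages. Carboxypeptidase A3 (Cpa3) is a protease of mast cell and basophil granules that early hematopoietic progenitors also transcribe. The promoter of Cpa3 is shown because most of the other vehicle cells, 2711 with Cpa3 alone and 843 with both genes, were set apart by this gene. It is the 250 bases before the RefSeq start on GRCm38.p6, chr3:20242182-20242431 on the minus strand, written 5′ to 3′ on the gene's strand, and capitals mark the motif match found.
Cpa3: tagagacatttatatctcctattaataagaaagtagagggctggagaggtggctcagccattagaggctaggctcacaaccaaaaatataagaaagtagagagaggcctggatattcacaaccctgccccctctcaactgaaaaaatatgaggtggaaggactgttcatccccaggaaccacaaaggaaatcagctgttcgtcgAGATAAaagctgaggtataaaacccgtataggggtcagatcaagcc
Searched on both strands, this window held 1 match to the GATA motif AGATAA and 0 to the PU.1 motif AGGAAGT or the C/EBP motif TTGCNNAA. The same window of Mpo (chr11:87793534-87793783) held 1 PU.1 match, and that of Ngp (chr9:110419558-110419807) 2 C/EBP matches. In GENCODE M21 these genes start at chr11:87793581 and chr9:110419747. Part of each of these windows therefore lies inside the annotated gene, unlike that of Cpa3. Among 32851 RefSeq windows of the same length, 9.99% held a GATA match, 7.69% a PU.1 match and 9.56% a C/EBP match. A match in these letters is no evidence of binding. In GENCODE M21 on GRCm38, Cpa3 lies at chr3:20215620-20242181, Mpo at chr11:87793581-87804413 and, of the genes described further on, Elane at chr10:79886247-79888215, Epx at chr11:87864000-87875536 and Gal at chr19:3409915-3414544.

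Over the summed UMIs of each group, Cpa3 stood at 8.03 CPM in double-low cells, 702 CPM in the other vehicle cells and 0.0777 CPM in retinoic acid cells. Such a sum cannot tell fewer cells with a gene from less RNA per cell. Mpo stood at 3.44 CPM in double-low cells, 385 CPM in the other vehicle cells and 0.534 CPM in retinoic acid cells. The Cpa3 and Mpo levels of the vehicle cells chosen as low were thus above those of the retinoic acid library as a whole. They rest on 145 Cpa3 and 62 Mpo UMIs, all in cells of at least 20000 UMIs. Whether these UMIs came from the cells themselves was not tested. No double-low cell had more than 2 UMIs of either gene, and 770 had 0 of both. Below 20000 UMIs a single UMI exceeds the limit of 50 CPM, so the 528 shallower double-low cells had 0 UMIs of both genes by construction. Of the 428 deeper ones, 242 had 0 of both. The highest Cpa3 level inside the limit was 49.9 CPM and the lowest outside it 50.1, with 138 cells between 25 and 50 and 180 between 50 and 75 where the other limits were met. For Mpo, the highest level inside was 49.7 and the lowest outside 51.3, with 59 cells between 25 and 50 and 52 between 50 and 75. The granule share ended at 1.97% inside and began at 2.07% outside. Cpa3 levels thus ran on across the limit with no gap.

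**Figure D1:**
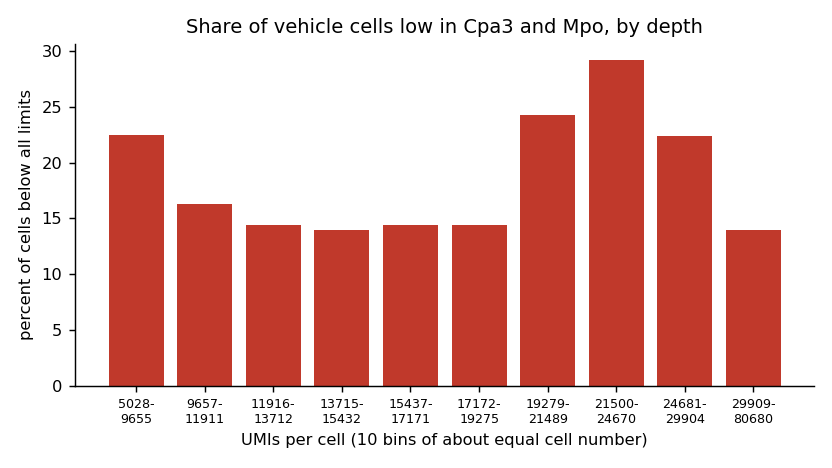
Percent of kept vehicle cells that met all limits (y axis) in 10 bins of about equal cell number ordered by UMIs per cell (x axis). The share lay between 14% and 16.3% from the second to the sixth bin, reached 29.2% in the eighth bin, where 1 UMI no longer exceeds a limit, and was 14% in the deepest bin.

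The share of double-low cells moved with depth. It was 22.5% in the shallowest bin, 14% to 16.3% in the next 5 bins, 29.2% in the eighth and 14% in the deepest. With every cell thinned to 5000 UMIs, 29.2% of vehicle cells met the rule, and among cells of at least 20000 UMIs 22.8% did. The size of this group is therefore a property of the limits and the depth together. Double-low cells had a median of 18740 UMIs and 4087 detected genes, against 16953 UMIs and 3755 genes in the other vehicle cells. Mitochondrial UMIs made up a median of 1.91% and 2.04%.

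Few genes other than those that chose the cells differed by 2-fold from the other vehicle cells. Among the 5394 genes that reached 20 CPM on at least one side, 1 was 2-fold or more higher (0.0185%) and 18 were 2-fold or more lower (0.334%), 3 of the 18 being genes of the rule (Cpa3, Mpo and Camp). The median log2 ratio over all 5394 genes was 0.08. All are named here, of which Prg2, Akr1c12, Epcam, Il15, Itga2b, Gpr34 and Gal were chosen after their values were seen. The lower genes included several of the eosinophil, basophil and mast cell program. Epx, eosinophil peroxidase, was at 12.6 CPM (11.0 to 14.3) against 56.6 CPM (55.0 to 58.3), a log2 ratio of -2.17. Prg2, the eosinophil major basic protein, was at 6.37 against 32.8 CPM, a log2 ratio of -2.36. Hdc, which makes histamine, was at 32.2 CPM (29.7 to 35.0) against 73.0 CPM (71.1 to 74.9), a log2 ratio of -1.18. For all 3 the intervals of the groups, which cover counting error only, did not overlap. The share of all genes for which that holds was not computed. With sums this large small ratios separate too, as for Ctsg, with a log2 ratio of 0.19 (0.18 to 0.20). Lack of overlap thus does not set the 3 genes apart. Cells rich in basophil or mast markers were fewer among double-low cells, at 3.97%, than among the other vehicle cells, at 13.7%, and they are described further down. Without such cells in both groups, the genes at least 2-fold lower numbered 10, and Epx, Prg2 and Hdc were not among them. Epx and Prg2 then lay under 20 CPM in both groups and so were not compared, but their ratios kept the direction, at 5.37 against 18.1 CPM (log2 ratio -1.74, -2.07 to -1.45) and 2.54 against 16.9 CPM (-2.72, -3.20 to -2.30). Hdc was then at 20.5 against 40.7 CPM, a log2 ratio of -0.99 (-1.15 to -0.83).

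These 10 genes were Akr1c12, Akr1c13, Camp, Cpa3, Epcam, Il15, Itga2b, Mpo, Tcrg-C1 and Tcrg-C2. The values that follow are over all cells of both groups, marker-rich cells included. Akr1c13, an aldo-keto reductase, was at 95.5 CPM in double-low and 275 CPM in the other vehicle cells, a log2 ratio of -1.52. Itga2b, the integrin αIIb of megakaryocytes and of some early progenitors, was at 10.2 against 32.7 CPM, a log2 ratio of -1.68. Tcrg-C1 and Tcrg-C2, constant segments of the T cell receptor gamma locus, were at 71.0 against 200 CPM and at 72.2 against 179 CPM. Il15, a cytokine of lymphocyte survival, was at 11.4 against 25.3 CPM. Tcrg-C1 and Tcrg-C2 have near-identical sequences, as do Akr1c12 and Akr1c13, so the split of reads within each pair is uncertain. Of the 16 T and NK cell markers 10 had 0 UMIs in double-low cells, among them Cd3e, Cd3g, Trbc1, Trbc2, Cd4 and Cd8a. Lck had 158 UMIs, Trac 24, Il7r 16, Klrb1c 4 and Cd3d 3. The list summed to 65.7 CPM, of which 54.4 CPM came from Tcf7, and to 67.6 CPM in the other vehicle cells. Of the genes named at 0, all but Cd3g, with 4 UMIs, had 0 UMIs in the other vehicle cells as well. The remaining genes at least 2-fold lower were Ctsh, a lysosomal cathepsin, Ldhc, a lactate dehydrogenase, Ifitm6, Wfdc12 and Gpr34, with log2 ratios of -1.28, -1.07, -1.20, -1.12 and -1.79.

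**Figure D2:**
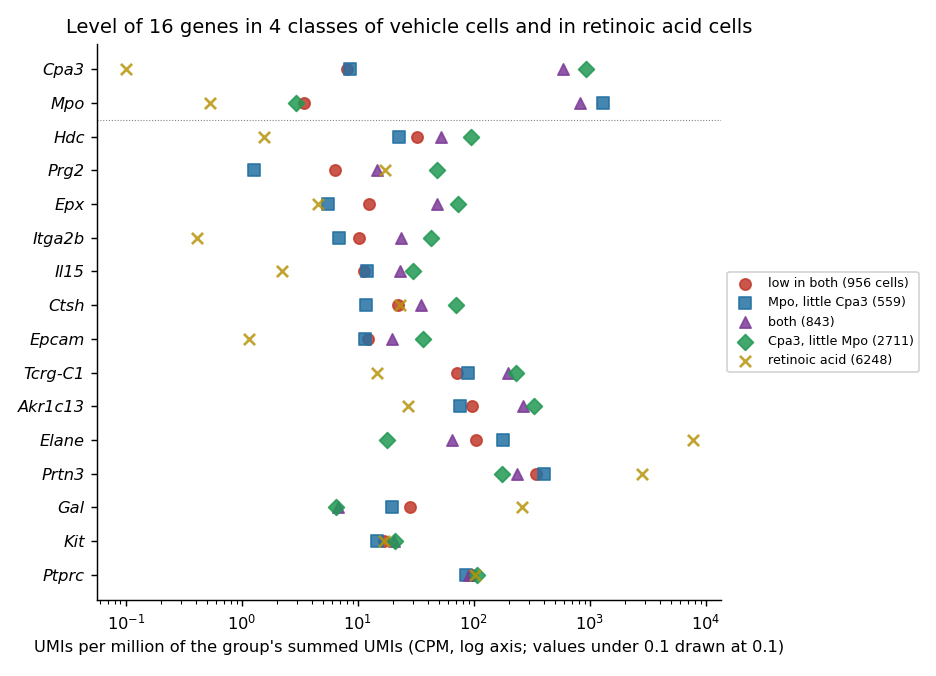
CPM of summed UMIs (x axis, log scale, values under 0.1 drawn at 0.1) of 16 genes (y axis) in 4 classes of vehicle cells and in retinoic acid cells, with Cpa3 and Mpo, which defined the classes, above the dotted line. Double-low cells lie near the cells with Mpo and little Cpa3 for Il15, Epcam, Tcrg-C1 and Akr1c13, and retinoic acid cells have the highest Elane, at 7673 CPM.

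Galanin (Gal), a neuropeptide gene, was the 1 gene at least 2-fold higher. It stood at 28.0 CPM (25.6 to 30.5) in double-low cells, 12.2 CPM (11.5 to 13) in the other vehicle cells and 262 CPM in retinoic acid cells, a log2 ratio of 1.20 to the other vehicle cells. Among cells of at least 20000 UMIs its log2 ratio was 0.88 and below 20000 UMIs 1.57, so no gene was 2-fold higher in the deeper cells. Against the cells with Mpo and little Cpa3 the Gal log2 ratio was 0.51, below 2-fold. In the granule groups described further on, Gal was at 8.93 CPM in the low and 65.4 CPM in the high group. Below 2-fold, Ly6g had a log2 ratio of 0.99, which rested on the marker-rich cells described further on. Of the primary granule genes, Elane was at 104 CPM (99.6 to 109) against 53.5 CPM (51.9 to 55.1), a log2 ratio of 0.96, and Prtn3 at 344 against 224 CPM, a log2 ratio of 0.62. Ms4a3, a membrane protein of granulocyte progenitors, was at 1177 against 781 CPM, a log2 ratio of 0.59. Ctsg, at 7179 against 6308 CPM, had a log2 ratio of 0.19. Of the 10 genes of that list, which leaves out Mpo, 7 lay above 0 and 3 below, with a median log2 ratio of 0.10 and none at 2-fold. Over all 5394 genes 71.1% lay above 0, with a median of 0.08. Vcam1, an adhesion molecule, was at 184 against 115 CPM, and Gatm, which makes the creatine precursor, at 68.0 against 40.3 CPM, with log2 ratios of 0.67 and 0.76.

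Of the 3 neighbouring classes, the vehicle cells with Mpo and little Cpa3 differed from the double-low cells at the fewest genes. Against that class, 3 of 5421 genes were at least 2-fold higher (0.0553%) and 1 was lower (0.0184%). The lower gene was Mpo, on which the classes were divided. The 3 higher genes, Ccl6, Ly6g and Akr1c18, were those of the marker-rich cells, and without these cells Mpo alone differed by 2-fold. Elane was lower than in that class, at 104 against 180 CPM, and Vcam1 higher, at 184 against 117 CPM. Against the cells with Cpa3 and little Mpo, 10 of 5434 genes lay 2-fold or more higher (0.184%) and 30 lower (0.552%), of which 4 and 1 were genes of the rule. There Elane stood at 17.7 CPM, Prtn3 at 176 CPM and Trem3, a myeloid receptor chosen after its value was seen, at 31.5 CPM against 71.5 CPM in double-low cells. Against the cells with both, 10 of 5408 genes lay 2-fold or more higher (0.185%) and 11 lower (0.203%), of which 4 and 2 were genes of the rule. The classes were all cut from 1 library by their own counts, so these numbers describe the cuts.

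More double-low cells than other vehicle cells were called S or G2/M. With all cells thinned to 5000 UMIs, 37.3% of double-low cells were called G1, 18.2% S and 44.5% G2/M, against 57.3%, 11.8% and 30.9% of the other vehicle cells. The difference was 6.43 points (3.91 to 9.17) for S and 13.5 points (10.1 to 17) for G2/M. Phase itself moved with depth: of the double-low cells under 20000 UMIs 21.2% were called G2/M, and of those from 20000 UMIs 73.1%. The difference in G2/M was 7.45 points (3.91 to 11.3) below and 9.86 points (4.84 to 14.6) above that depth. The difference in S was 8.46 points (5.12 to 12.2) below and 3.09 points (-0.7 to 7.32) above it, where the interval spans 0. Cells with Mpo and little Cpa3 were called G1 less often still, at 29.3%, and cells with Cpa3 and little Mpo more often, at 65%. With cells thinned to 3000 UMIs the differences were 5.23 points for S and 13.3 points for G2/M, and with unthinned cells 6.78 and 13.4 points.

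**Figure D3:**
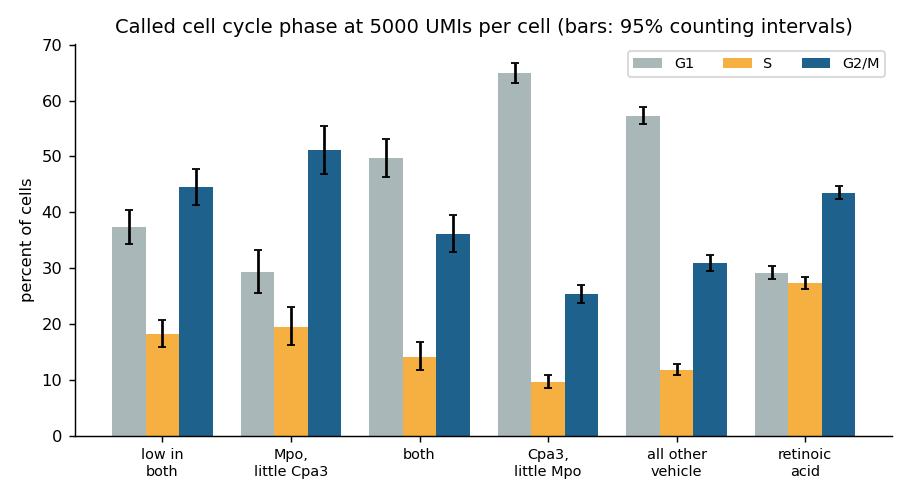
Percent of cells called G1, S or G2/M (y axis) at 5000 UMIs per cell in 4 classes of vehicle cells, in all vehicle cells that are not double-low and in retinoic acid cells, with 95% Clopper-Pearson intervals as bars. G2/M calls took 44.5% of double-low cells, 51.2% of cells with Mpo and little Cpa3 and 25.3% of cells with Cpa3 and little Mpo.

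The genes on which the calls rest were higher together, each by little. All 32 measured S phase genes lay above 0 against the other vehicle cells, with a median log2 ratio of 0.36, a range of 0.10 to 0.53 and none at 2-fold. All 44 measured G2/M genes lay above 0, with a median of 0.44, a range of 0.23 to 0.64 and none at 2-fold, while 1 of 5394 genes (0.0185%) was 2-fold higher overall. Ube2c, which drives mitotic exit, was at 396 against 305 CPM, Hmgb2, a chromatin protein of dividing cells, at 1514 against 1121 CPM, and Pcna, the sliding clamp of replication, at 150 against 117 CPM. Hist1h1b, a replication-dependent linker histone, was at 134 against 87.4 CPM. Over all genes 71.1% lay above 0. Within a called phase the ratios were smaller. Within cells called G2/M, 45 of 51 measured G2/M genes lay above 0, where 64.2% of all genes did. Their median was 0.11 against 0.04 over all genes. Within cells called S, 23 of 41 S phase genes lay above 0, where 58.8% of all genes did. Their median was 0.01 against 0.03 over all genes. Within cells called G1, 19 of 19 S phase genes lay above 0, where 61.3% of all genes did. Their median was 0.23 against 0.04 over all genes.

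The subunits of Polycomb repressive complex 2, whose enzyme EZH2 methylates histone H3, were also slightly higher. All 8 measured subunits lay above 0, where 71.1% of all genes did, with a median log2 ratio of 0.21 against 0.08 over all genes and none at 2-fold. Within cells called G1 the median of the subunits was 0.15 against 0.04 over all genes, and within S 0.12 against 0.03. Within cells called G2/M the median of the subunits was 0.04, as over all genes. Ezh2 was at 68.8 CPM (65.0 to 72.7) in double-low cells, 54.5 CPM (52.9 to 56.2) in the other vehicle cells and 95.5 CPM in retinoic acid cells. Within cells called G2/M the Ezh2 log2 ratio to the other vehicle cells was 0.01 and within G1 0.25. Of 15 cholesterol synthesis genes 14 lay above 0, with a median of 0.22, led by Fdps, a farnesyl pyrophosphate synthase, at 435 against 351 CPM. All 6 measured immediate early genes lay below 0, with a median of -0.17. Among the cell cycle inhibitors, Cdkn2a, which encodes p16 and p19Arf, was at 109 against 154 CPM, a log2 ratio of -0.50 and of 0.14 within cells called G1. In the 38 marker-rich cells described further on Cdkn2a was at 1945 CPM and in the other double-low cells at 72.6 CPM. Without marker-rich cells in both groups Cdkn2a was at 72.6 against 118 CPM, a log2 ratio of -0.70 (-0.78 to -0.61).

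Other lists lay close to the all-gene median of 0.08. Medians were 0.02 for 15 myeloid transcription factors, 0.01 for 16 genes of folding in the endoplasmic reticulum, 0.04 for 13 glycolysis genes, -0.02 for 8 heat shock genes, 0.06 for 9 genes of MHC class I presentation and 0.03 for 10 survival and death genes. None of these lists held a gene at 2-fold. The lysosome list had a median of -0.10 over 12 genes, and Ctsh was its 1 gene at 2-fold. The 3 measured interferon response genes had a median of -0.07 and the 6 stem and progenitor genes -0.05. The 9 measured G1 cyclins, kinases and inhibitors had a median of -0.06. The 8 later neutrophil genes had a median of 0.21, with 6 above 0, where 71.1% of all genes were, and none at 2-fold. Without the marker-rich double-low cells this median was 0.03 against 0.08 over all genes, with 4 genes above 0 and Ly6g at 2-fold lower. Without marker-rich cells in both groups the median was 0.19 over 7 genes. Of the fusion partners, Zbtb16 was at 10.7 CPM (9.24 to 12.3) in double-low and 9.74 CPM (9.06 to 10.4) in the other vehicle cells, and Rara at 9.14 CPM (7.80 to 10.6) against 11.3 CPM (10.6 to 12.1). Counts at the 3′ end cannot tell the fusion transcript from the normal genes.

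A small set of 38 double-low cells (3.97%, 2.83 to 5.42) stood apart by basophil and mast cell markers. They were the cells in which 16 markers of these types took at least 0.1% of the UMIs, a limit set after the data were seen, and 8 double-low cells lay between 0.08% and 0.12%. Cells past this limit made up 18.5% of the cells with Cpa3 and little Mpo, 7.83% of those with both, 0.894% of those with Mpo and little Cpa3 and 0.016% of retinoic acid cells. The 38 cells were shallow, with a median of 8436 UMIs, and 36 of them were called G1. Cpa3, itself a mast cell gene that the rule limits, had 0 UMIs in them. The 16 markers summed to 3717 CPM in these cells, 242 CPM in the other double-low cells, 569 CPM in the other vehicle cells and 83.2 CPM in retinoic acid cells, and Fcer1a, Mcpt4, Prss34, Tpsab1 and Tpsb2 had 0 UMIs in all double-low cells. No cell type name is given to them.

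The genes named for these cells were chosen after their values were seen. Cd200r3, a receptor of basophils and mast cells, had 44 UMIs in the 38 cells and 0 in the other 918 double-low cells, a count that allows up to 3. Il1rl1, the receptor of interleukin 33, had 36 UMIs in the 38 cells and 1 in the others, and Il13 23 and 0. These 3 genes are among the markers that chose the cells. Outside that list, the 38 cells held 2484 of the 2826 Ccl6 UMIs of all double-low cells and 835 of the 921 Ly6g UMIs. Ccl6 is a chemokine of myeloid cells, and Ly6g is part of the Gr1 antigen used in the sort. Epx, an eosinophil gene, was at 380 CPM in the 38 cells and 5.37 CPM in the others. Ccnb2, a mitotic cyclin, had 0 UMIs in the 38 cells and was at 111 CPM in the others.

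**Figure D4:**
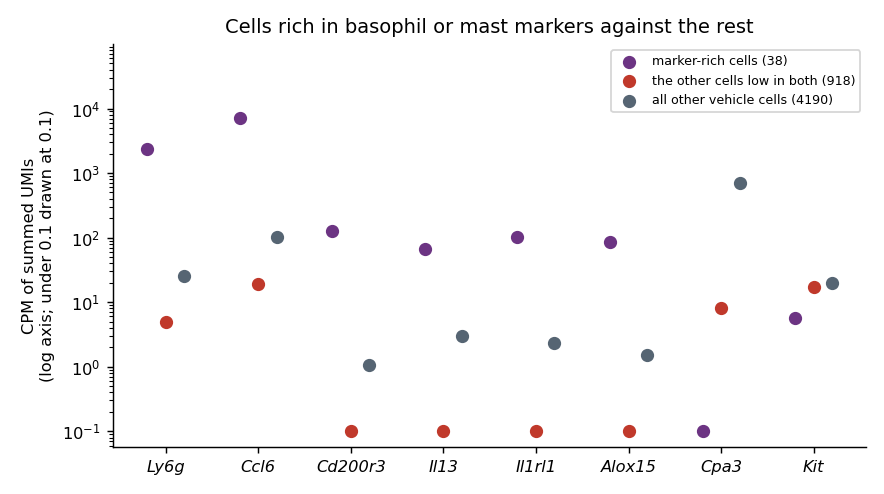
CPM of summed UMIs (y axis, log scale, values under 0.1 drawn at 0.1) of 8 genes (x axis) in the 38 marker-rich double-low cells, the other 918 double-low cells and the 4190 other vehicle cells. Ly6g and Ccl6 are far higher in the marker-rich cells, at 2402 and 7146 CPM, than in the other double-low cells, at 4.86 and 19.3 CPM.

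For Ly6g and Ccl6, the direction against the other vehicle cells turned without marker-rich cells. Over all double-low cells Ly6g was at 51.0 CPM against 25.7 CPM in the other vehicle cells, a log2 ratio of 0.99. Without marker-rich cells in both groups it was at 4.86 against 8.94 CPM, a log2 ratio of -0.87 (-1.22 to -0.55). Ccl6 was at 157 against 103 CPM over all cells, and at 19.3 against 23.7 CPM without marker-rich cells in both groups, a log2 ratio of -0.30 (-0.47 to -0.13). With the 38 cells left out of the double-low group alone, which leaves the marker-rich cells in the other group, 1 of 5404 genes was at least 2-fold higher than in the other vehicle cells (0.0185%) and 28 were lower (0.518%).

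Among the other 918 double-low cells, the 6 later granule genes, although capped by the rule, ran from 0% to 1.97% of a cell's UMIs. Split by this share into 3 granule groups of 306 cells, the low group held up to 0.0422%, the middle group 0.0426% to 0.133% and the high group 0.134% or more. The groups had median depths of 20810, 19751 and 16918 UMIs. Between the high and the low group, 42 of 5575 genes were at least 2-fold higher (0.753%), 5 of them granule genes used for the split, and 4 were lower (0.0717%). Among cells of at least 20000 UMIs alone, 29 were higher and 7 lower. The following genes were chosen after their values were seen. Olfm4, a secondary granule protein of a subset of neutrophils, was at 5.85 CPM in the low, 14.9 CPM in the middle and 115 CPM in the high group. Vcam1 was at 70.0, 145 and 359 CPM, and Gal at 8.93, 15 and 65.4 CPM. All 3 were higher at each step.

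Further genes higher in the high granule group included Itgb2, the common chain of the leukocyte β2 integrins (19.7 and 58.1 CPM in the low and high group), and the complement gene C3 (60.8 and 160 CPM). Alox5 and Ltb4r1, which make and receive leukotrienes, were at 30.1 and 65.4 CPM and at 42.7 and 88.0 CPM. The later neutrophil list, which includes Olfm4 and Ltb4r1, had 10 of 10 measured genes above 0, with a median log2 ratio of 1.01 and 5 genes at 2-fold. Lower in the high group were Cd34, the progenitor antigen (58.6 and 25.3 CPM), Tcrg-C2 (106 and 37.7 CPM) and Akr1c13 (113 and 55.9 CPM). Phase calls differed as well: G1 took 44.4% of the high and 27.5% of the low group, a difference of 17 points (9.41 to 24.3). Of 46 measured G2/M genes, 44 lay below 0 in the high against the low group, with a median of -0.22. Over all 5575 genes the median was -0.07, with quartiles of -0.21 and 0.08, so more of all genes lay below 0 than above. The high group was also the shallower, and the phase calls of these groups were not compared at like depth.

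**Figure D5:**
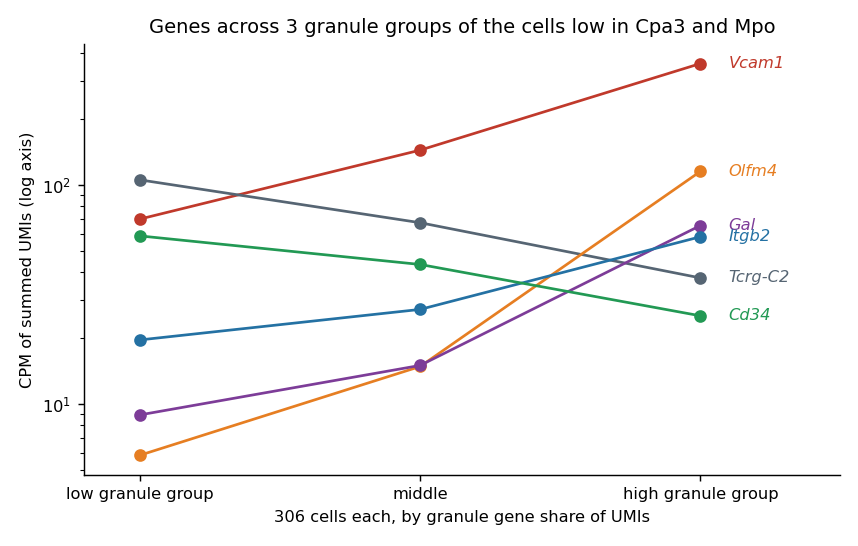
CPM of summed UMIs (y axis, log scale) of 6 genes in the low, middle and high granule group of 918 double-low cells, cut by the share of later granule genes (x axis). Olfm4, Gal, Vcam1 and Itgb2 are higher and Cd34 and Tcrg-C2 lower at each step, with Olfm4 at 5.85 and 115 CPM at the ends.

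Mitotic genes led the genes that were higher in deep than in shallow double-low cells. From 20000 UMIs upward, 97 of 5586 genes were at least 2-fold higher than in the shallower double-low cells (1.74%) and 45 lower (0.806%). The largest ratios above included, as genes chosen after their values were seen, Cenpf, a kinetochore protein, at 166 against 41.8 CPM, and Ccnb1, cyclin B1, at 141 against 39.1 CPM. Among the lower ones were Ccl6 and Ly6g, whose UMIs lay mostly in the 38 shallow marker-rich cells. Cdkn2a, at 57.0 against 190 CPM, and Olfm4, at 24.6 against 70.6 CPM, were lower too. Of the 1961 Cdkn2a UMIs of all double-low cells, 1285 lay outside the 38 cells, so part of its ratio rests on them. The Cdkn2a ratio by depth without these cells was not computed.

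Against retinoic acid cells, the double-low cells differed by 2-fold at many more genes. Among 5587 genes compared, 220 were 2-fold or more higher (3.94%) and 113 were lower (2.02%). With scaling by trimmed means (TMM), which moved the median log2 ratio of all genes from 0.06 to -0.10, the split was 177 and 154. In the retinoic acid library 2232 cells (35.7%) met the same limits, and against these 174 of 5610 genes lay 2-fold or more higher (3.1%) and 52 lower (0.927%). Treatment, mice and preparation cannot be told apart between the 2 libraries.

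Higher in double-low cells were Cd34, at 42.3 CPM against 0.117 CPM in retinoic acid cells, and Tespa1, a signaling adaptor of lymphocytes and mast cells, at 55.4 against 0.466 CPM. Igfbp4, which binds insulin-like growth factors, was at 46.0 against 0.816 CPM and Serpina3g, a protease inhibitor, at 224 against 6.18 CPM. These 4 belong to a list of 8 genes taken from earlier results of the same libraries, all of which were at least 2-fold higher in double-low than in retinoic acid cells, with a median log2 ratio of 5.88. The list is no independent evidence of that direction. Serpina3g has close copies among which reads could be split, so its level is uncertain. All 8 lay below 0 against the other vehicle cells, with a median of -0.51. Over all genes 71.1% lay above 0 in that comparison, with a median of 0.08. Cd34 was at 42.3 against 57.0 CPM and Igfbp4 at 46.0 against 83.3 CPM. Taken from the same libraries, the list is no independent evidence here either. Among the other large differences were Adgre1, which encodes F4/80, at 57.5 against 5.09 CPM and Itgb7, an integrin chain, at 64.7 against 5.79 CPM.

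The primary granule genes differed from retinoic acid cells in both directions. Elane was at 104 against 7673 CPM and Prtn3 at 344 against 2822 CPM, the 2 of 10 genes at least 2-fold lower. Nkg7, a granule membrane protein, was at least 2-fold higher, at 1247 against 576 CPM. Ctsg was at 7179 against 6023 CPM, and 7 of the 10 genes lay above 0, where 57.8% of all genes did, with a median log2 ratio of 0.20. The later granule and neutrophil genes were mostly lower. Camp was at 26.5 against 17790 CPM and S100a8, a calcium-binding protein of neutrophils, at 116 against 12810 CPM, both capped by the rule in double-low cells. Cd177, a neutrophil surface protein, was at 12.1 against 303 CPM and Retnlg, a resistin-like protein of mature neutrophils, at 0.831 against 192 CPM. Of 15 later neutrophil genes 11 were at least 2-fold lower, 1 was higher (Anxa1, 278 against 48.9 CPM), and the median log2 ratio was -2.30. Against the retinoic acid cells under the same limits, Elane stayed apart at 8468 CPM. Ly6g was at 23.4 CPM in those cells, 250 CPM over all retinoic acid cells and 51.0 CPM in double-low cells. Without the marker-rich cells, the double-low cells had Ly6g at 4.86 CPM, below both retinoic acid values. S and G2/M genes were slightly lower than in retinoic acid cells, with medians of -0.30 and -0.15 and none at 2-fold. S phase calls took 18.2% and 27.3%, a difference of -9.07 points (-11.6 to -6.28), while G2/M calls differed by 0.954 points (-2.4 to 4.35).

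The antigens of the sort were read as RNA. Ptprc (Cd45) was at 96.3 CPM in double-low, 101 in the other vehicle and 102 CPM in retinoic acid cells, and Kit at 16.7, 19.8 and 16.8 CPM. Fcgr3 and Fcgr2b, the Fcγ receptors, were at 37.5 and 115 CPM, and Ly6c2, which with Ly6g carries Gr1, at 4257 CPM in double-low cells, a level that its near-identical neighbour Ly6c1 makes uncertain. The labels give the cells as negative for Cd34, but Cd34 RNA was at 42.3 CPM in double-low and 57.0 CPM in the other vehicle cells. Markers of other cell types were low in double-low cells. Summed over the list, they came to 7.26 CPM for 12 dendritic, 15.9 CPM for 11 B lineage, 0.166 CPM for 6 plasma, 8.03 CPM for 12 erythroid and 16.5 CPM for 9 megakaryocyte genes, the last mostly Itga2b. The 17 monocyte and macrophage markers came to 254 CPM, of which Vcam1 made up 184 CPM, and Fcgr1, Ly86, Ms4a6c and C1qc had 0 UMIs. The 14 neutrophil markers came to 586 CPM, led by Prtn3, with Mmp8, Mmp9 and Chil3 at 0 UMIs. The 10 eosinophil markers came to 34.0 CPM in double-low cells, 115 CPM in the other vehicle cells and 28.7 CPM in retinoic acid cells, and 10 markers of stroma or endothelium to 81.1 CPM, of which Pecam1 made up 80.9 CPM.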

How the data were processed

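Droplet single-cell RNA-seq was made from sorted promyelocytes, 1 library per treatment. The deposited matrices hold raw UMI counts per gene and cell, not normalized. Per the submitters' processing notes Cell Ranger 4.0.0 and the builds mm10 and GRCm38.p4 were used. The annotation and the rule for calling cells are not given in the sources used here. Other values in the deposited files are gene identifiers, symbols and barcodes. Of 32285 identifiers 32158 matched GENCODE M21, and no position was converted between builds.

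Barcodes needed 5000 UMIs or more, 500 genes or more and a mitochondrial share of 0.1 to 10%, and 640 from the vehicle and 1168 from the retinoic acid matrix failed. The group and the gene lists were chosen with earlier results of these data known. Counts were summed over the cells of a group, expressed as CPM and compared as log2 ratios with 0.5 counts added, over genes with at least 20 CPM in either group. Intervals are 95% Poisson for CPM, exact binomial for ratios, Clopper-Pearson for shares and Newcombe for differences of shares. UMIs remove PCR copies, and the intervals cover counting error only. A sum of 0 allows up to 3 counts. Phases came from the cell cycle scoring of scanpy 1.11.5 on both libraries together, each cell thinned to 5000 UMIs. Scrublet called 1 vehicle and 3 retinoic acid cells doublets (0.0194% and 0.048%), too few to trust, so none was removed. An alternative left out the 5% of cells with the highest scores. TMM factors came from edgeR 4.0.16.

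Named genes were the 8 genes of the rule, the 15 largest differences each way against the other vehicle cells and the 10 largest each way against retinoic acid cells among genes with at least 50 CPM, the 4 most abundant genes of each list with its genes at 2-fold, and Ezh2, the fusion partners and the genes of the sort. Others are said to be chosen after their values were seen. The calculation was tested on simulated counts. Alternatives changed the limits, cell filters, depth, minimum level, scaling and cell weights.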

Additional observations from a re-analysis of the deposited data

How the results depend on the processing

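The share of double-low cells was 15.1% with limits of 25 CPM, 26.4% with limits of 100, 29.2% with cells thinned to 5000 UMIs and 22.8% among cells from 20000 UMIs. It stayed within its counting interval, 17.5 to 19.7%, under the 5 other alternatives. Genes at least 2-fold higher than in the other vehicle cells numbered 3 at a minimum of 5 CPM, 0 at 100 CPM, 1228 with no minimum, 5 with every cell weighted equally, 0 in cells from 20000 UMIs, 3 without high Scrublet scores, 4 and 2 with limits of 25 and 100, and 10, 3 and 0 within G1, S and G2/M cells, against 1. Genes at least 2-fold lower numbered 46 at 5 CPM, 8 at 100 CPM and 862 with no minimum, against 18, and 28 without the marker-rich double-low cells and 10 without marker-rich cells in both groups. Against retinoic acid cells the higher genes numbered 496 at 5 CPM, 51 at 100 CPM and 3036 with no minimum, against 220, and the lower genes 221, 42 and 857, against 113, and 52 against cells under the same limits. Against the class with Mpo and little Cpa3, 1 gene in place of 4 differed without the marker-rich cells or from 20000 UMIs. Between the high and low granule groups, 8 genes were higher and 2 lower at 100 CPM, against 42 and 4, and 7 were lower from 20000 UMIs. In cells from 20000 UMIs the S difference was 3.09 points and the G2/M difference 9.86 points, and with limits of 25 the G2/M difference was 7.13 points. The alternatives by called phase, by marker-rich cells, by retinoic acid cells under the same limits, and those for the class with Mpo and the granule groups were all chosen after seeing the data. Where no cause is given above, the cause was not tested. Without a minimum level, genes with few counts pass the ratio.

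Of 129 named genes, 12 were at 2-fold against the other vehicle cells and 10 of these stayed so in all 5 alternatives run for them, and 39 of 42 against retinoic acid cells. No such ratio changed sign. No paired analysis was possible because only 1 library stood for each treatment. Genes under about 20 CPM rest on few counts in 956 cells, and the rule on Cpa3 and Mpo cannot separate low levels from 0 in cells under 20000 UMIs.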
